A study of Mus musculus with 4 samples.

Results

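The genes described here encode the enzymes that write and erase DNA methylation: the methyltransferases Dnmt1, Dnmt3a and Dnmt3b, their catalytically inactive relative Dnmt3l, the dioxygenases Tet1, Tet2 and Tet3, the maintenance cofactor Uhrf1 and the glycosylase Tdg. Of these 9 listed genes, 8 had a probe set annotated with their symbol alone, among 19939 genes measured in all. Tdg was named only by 4 probe sets that also name a pseudogene copy, so it is not analysed here. Where a gene had several probe sets, the brightest by the mean of the 4 arrays stood for it. Expression was measured in TS1 and TS2, mouse cell lines whose labels give CD4-positive T lymphocytes as their origin. The lines were cultured without treatment in Iscove-Dulbecco's medium that contained murine interleukin-9, a T cell growth factor. Total RNA from 2 biological duplicates per line, A and B, went onto Affymetrix arrays, 1 array per duplicate. Each group is a single line, and whether the duplicates were separate cultures is not given in the sources used here, so the p-values measure the spread between these arrays, which may be technical.

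DNA methylation in mammals sits mainly on cytosines followed by guanine (CpG). Dnmt3a and Dnmt3b place it on unmethylated DNA, and Dnmt1, brought to the replication fork by Uhrf1, copies it onto the daughter strand after replication. The TET enzymes oxidise methylated cytosine with alpha-ketoglutarate and iron as cofactors, and the oxidised bases are lost by dilution at replication or are cut out by Tdg and replaced by base excision repair. In T lymphocytes, Dnmt1 and Dnmt3a restrain cytokine genes of the lineages that a cell did not adopt, and Tet2 takes part in demethylating cytokine genes. The arrays measure RNA: DNA methylation itself was not measured.

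Dnmt3b, Tet1 and Tet3 differed between the lines, and all 3 were higher in TS1. Tet1 was 5.68-fold higher, Dnmt3b 1.85-fold and Tet3 1.51-fold. Further probe sets of Tet1, not used for the call, gave 4.19-fold and 4.96-fold. The call of Tet3 rested on all 4 arrays. Dnmt1, Dnmt3a, Dnmt3l, Uhrf1 and Tet2 did not pass the test. Because RNA from whole cultures was measured, fewer cells of a type and less RNA per cell cannot be told apart.

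The start regions of the 3 genes that differed and of Tet2, the TET gene whose difference had the opposite sign, are shown because CpG sites are the substrate of these enzymes. Each line holds the 250 bases before the annotated start site, read 5′ to 3′ on the gene's own strand from RefSeq, build GRCm38.p6, with every CpG in capitals. The windows are chr10:62887325-62887574 (minus strand) for Tet1, chr6:83441679-83441928 (minus strand) for Tet3, chr2:153649199-153649448 (plus strand) for Dnmt3b and chr3:133544391-133544640 (minus strand) for Tet2. The windows of Tet3 and Tet2 lie wholly and those of Tet1 and Dnmt3b partly inside the annotated gene, so each belongs to a start site downstream of the gene's outermost end.
Tet1: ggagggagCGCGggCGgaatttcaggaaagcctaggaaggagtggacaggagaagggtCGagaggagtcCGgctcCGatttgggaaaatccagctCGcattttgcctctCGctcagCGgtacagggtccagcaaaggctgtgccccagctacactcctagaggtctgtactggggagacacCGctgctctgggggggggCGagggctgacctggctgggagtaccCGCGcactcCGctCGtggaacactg
Tet3: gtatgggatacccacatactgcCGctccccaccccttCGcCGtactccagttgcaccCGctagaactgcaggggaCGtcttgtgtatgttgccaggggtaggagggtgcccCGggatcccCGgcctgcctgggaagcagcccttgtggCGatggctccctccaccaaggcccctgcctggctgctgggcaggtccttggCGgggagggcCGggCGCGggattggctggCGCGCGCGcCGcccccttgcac
Dnmt3b: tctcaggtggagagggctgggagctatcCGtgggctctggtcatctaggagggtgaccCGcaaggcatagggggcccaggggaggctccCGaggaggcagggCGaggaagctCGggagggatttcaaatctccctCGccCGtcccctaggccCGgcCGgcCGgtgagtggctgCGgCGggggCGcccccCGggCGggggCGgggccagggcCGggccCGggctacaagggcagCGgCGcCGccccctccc
Tet2: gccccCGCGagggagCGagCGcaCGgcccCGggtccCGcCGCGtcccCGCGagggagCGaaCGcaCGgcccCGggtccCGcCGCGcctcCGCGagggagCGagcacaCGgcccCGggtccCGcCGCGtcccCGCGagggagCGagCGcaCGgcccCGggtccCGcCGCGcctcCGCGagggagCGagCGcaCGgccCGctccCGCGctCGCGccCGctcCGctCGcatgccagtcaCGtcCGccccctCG
The Tet1 window holds 15 CpG sites, the Tet3 window 17, the Dnmt3b window 21 and the Tet2 window 51. Over 32851 start sites of 27025 genes, the median window of the same length holds 6. At least as many as in Tet1 occur in 27.3% of all windows, as in Tet3 in 23.5%, as in Dnmt3b in 16.3% and as in Tet2 in 0.067%. Among the genes that did not pass the test, the 3 windows of Dnmt3l hold 3 to 5 CpG sites, the 3 of Dnmt3a 15 to 40, the 3 of Dnmt1 2 to 26 and the 2 of Uhrf1 10 and 30. These counts describe the sequence and say nothing of its methylation in these cells.

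Values below are log2 of the deposited intensities, and where 2 values are given for a line, that of duplicate A comes first and that of B second. Gene positions are those of RefSeq, build GRCm38.p6. Differences are TS2 minus TS1 with their standard error (SE), n = 2 arrays per line, and adjusted p-values come from limma with Benjamini-Hochberg adjustment over all 19939 genes. With 2 arrays a line, the smallest p that an exact permutation test can give, two-sided, is 0.333, and this small number limits how precise each value is. Intensities depend on each probe set, and therefore a gene is compared between lines and not with another gene.

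The TET genes held the largest difference of the family. Tet1 (chr10:62804570-62887469), a dioxygenase with a CpG-binding CXXC domain, read 7.85 and 8.24 in TS1 and 5.35 and 5.72 in TS2. Both TS1 arrays thus lay far above both TS2 arrays, with an SD between duplicates of 0.27 in TS1 and 0.26 in TS2. The difference was -2.51 (SE 0.19, adjusted p = 0.00262), with a 95% interval of -2.99 to -2.02. A difference at least as large was found for 1.29% of all genes. Tet1 passed whichever array was left out, with an adjusted p of 0.00634 to 0.0125. On TS2 its intensity was below the array's median over all probe sets, which was 6.47 to 6.53 over the 4 arrays, and signal over background was not examined, so the size of the fold is uncertain.

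Tet1 was read by 2 further probe sets, which the choice of the brightest did not use. The second read 7.61 and 7.92 in TS1 against 5.57 and 5.83 in TS2, a difference of -2.07. The third read 7.14 and 7.33 in TS1 against 4.95 and 4.89 in TS2, a difference of -2.31. All 3 probe sets of Tet1 were higher on every TS1 array than on any TS2 array. They share the same 4 RNA samples, so they are 3 readings of the same extracts and not replicates.

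Tet3 (chr6:83362373-83457208), a TET enzyme known for oxidising the paternal genome in the zygote, read 9.09 and 9.01 in TS1 and 8.52 and 8.37 in TS2. Its arrays did not overlap between the lines. The difference was -0.60 (SE 0.10, adjusted p = 0.0232). Its other probe set read 8.65 and 8.52 in TS1 and 7.91 and 7.98 in TS2, a difference of -0.64. The call of Tet3 rested on all 4 arrays: leaving out TS1 A gave an adjusted p of 0.0678, leaving out TS1 B 0.0628, TS2 A 0.0818 and TS2 B 0.128, while the difference stayed between -0.67 and -0.53.

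**Figure D1:**
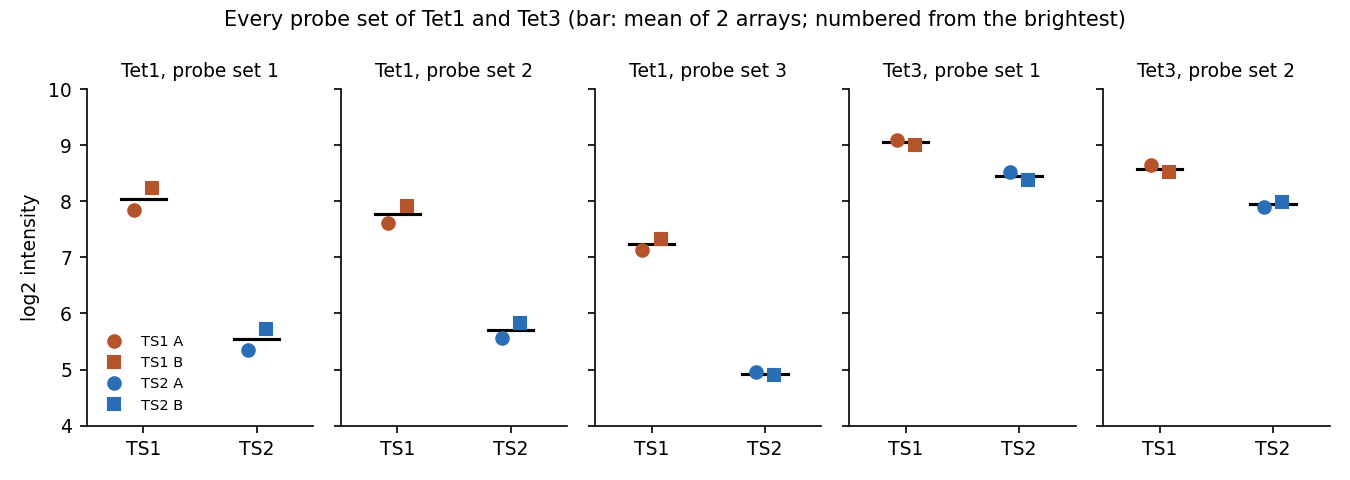
Log2 intensity (vertical axis) of each probe set of Tet1 (3 panels) and Tet3 (2 panels) on the TS1 and TS2 arrays, duplicate A as circles and B as squares, with the mean of 2 arrays as a bar. Every probe set read higher on both TS1 arrays than on both TS2 arrays, with TS2 minus TS1 differences of -2.51 to -2.07 for Tet1 and -0.64 to -0.60 for Tet3.

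Tet2 (chr3:133463677-133545136), the TET gene most often mutated in blood cancers, read 9.41 and 9.42 in TS1 and 9.72 and 9.63 in TS2. Its arrays did not overlap, with TS2 the higher, but the difference of 0.26 (SE 0.089) did not pass (adjusted p = 0.134, unadjusted p = 0.0336). Its 95% interval ran from 0.030 to 0.49.

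Among the methyltransferases, only Dnmt3b passed. Dnmt3b (chr2:153649411-153687730), which places new methylation and is most abundant in early embryos and stem cells, read 8.18 and 8.13 in TS1 and 7.23 and 7.30 in TS2. The duplicates of each line nearly coincided (SD 0.030 in TS1 and 0.050 in TS2), and the lines did not overlap. The difference was -0.89 (SE 0.089, adjusted p = 0.0059), with a 95% interval of -1.11 to -0.66. Dnmt3b passed whichever array was left out, with an adjusted p of 0.0222 to 0.0467.

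Dnmt3a (chr12:3801559-3914443), the other enzyme that places new methylation, read 8.28 and 8.04 in TS1 and 8.11 and 8.19 in TS2. The TS2 arrays lay between the TS1 arrays. The difference was -0.012 (SE 0.12, adjusted p = 0.964, 95% interval -0.31 to 0.29). The sign of the Dnmt3a difference turned with other scalings, to 0.013 with each array centred on its median and to 0.11 with renewed quantile normalization. An antisense RNA of the Dnmt3a locus, Dnmt3aos, has a probe set of its own, which read 6.32 and 6.40 in TS1 and 6.40 and 6.55 in TS2.

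Dnmt3l (chr10:78042287-78063622), which has no catalytic activity and stimulates Dnmt3a and Dnmt3b in germ cells, was dim in both lines. It read 4.74 and 4.70 in TS1 and 4.67 and 4.97 in TS2, below the median of every array. TS2 held both its lowest and its highest value. The difference was 0.10 (SE 0.13, adjusted p = 0.673, 95% interval -0.23 to 0.44).

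The genes of maintenance methylation did not pass. Dnmt1 (chr9:20907206-20959888), which copies methylation at replication, read 11.28 and 11.39 in TS1 and 11.23 and 11.22 in TS2. Its TS1 arrays were both slightly above its TS2 arrays, but the difference was -0.10 (SE 0.092, adjusted p = 0.53, 95% interval -0.34 to 0.13). Uhrf1 (chr17:56303337-56323486), which recognises hemimethylated DNA and recruits Dnmt1, read 9.69 and 10.08 in TS1 and 9.77 and 9.76 in TS2. Both TS2 arrays lay between the TS1 duplicates, and the difference was -0.12 (SE 0.15, adjusted p = 0.658, 95% interval -0.50 to 0.26).

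**Figure D2:**
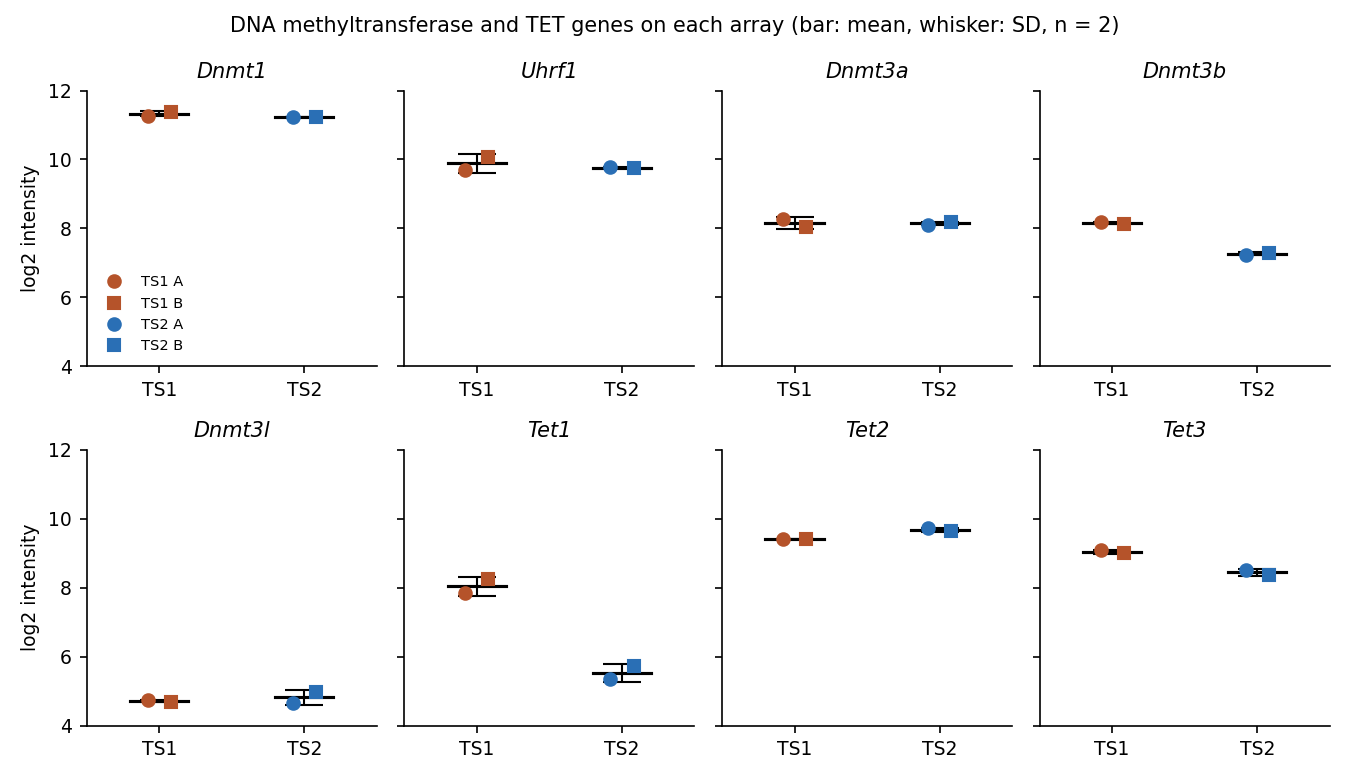
Log2 intensity (vertical axis) of the 8 genes on each array, TS1 and TS2 side by side in each panel, duplicate A as circles and B as squares, with the mean as a bar and the SD as a whisker (n = 2). The mean of Tet1 was 8.04 in TS1 and 5.54 in TS2, that of Dnmt3b 8.15 and 7.27, and that of Tet3 9.05 and 8.45, while the arrays of Dnmt3a, Dnmt3l and Uhrf1 overlapped between lines.

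By limma, then, 3 of the 8 genes were called with TS1 the higher and 0 with TS2 the higher, against 3 and 1 if p is left unadjusted. Among all genes, 13.5% were called, 8.45% higher in TS1 and 5.05% higher in TS2. For 5 of the 8 genes the lines held no overlapping arrays, close to the 58.4% of all genes for which this held. The median difference of the 8 genes was -0.11, against 0.013 over all genes tested. Brighter genes leaned towards TS1: with the dimmest 50% of genes left out, Dnmt3l among them, the median over all genes was -0.085. The 2691 genes called in all became 1565 when TS1 B was left out, 980 when TS2 A was and 1035 when TS2 B was. Of these 2691 genes, 37.4% were higher in TS2, a share that rose to 47.8% with renewed quantile normalization. Of the 8 genes, 3 remained called with the latter scaling.

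**Figure D3:**
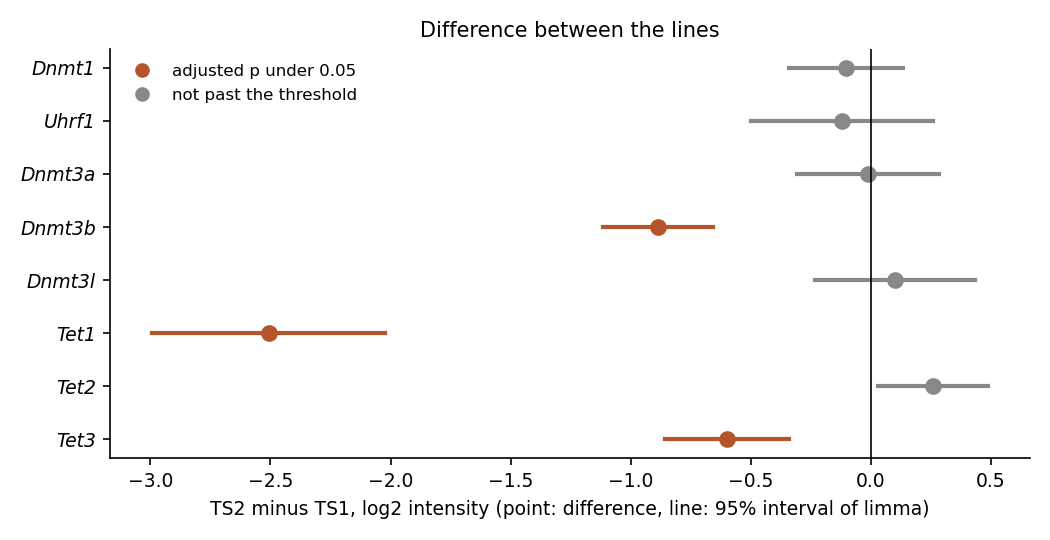
TS2 minus TS1 difference in log2 intensity (horizontal axis) of the 8 genes, with the 95% interval of limma as a line. The intervals of Dnmt3b, Tet1 and Tet3 lie wholly below 0, Tet2 reaches from 0.030 to 0.49, and those of Dnmt1, Dnmt3a, Dnmt3l and Uhrf1 include 0.

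The genes whose 4 values moved most like those of each called gene were found by the root mean square distance after centring every gene on its own mean, over 4 arrays and all genes. For Tet1 these were Gfpt2 (distance 0.012), Tbc1d2b (0.081) and Rhobtb3 (0.10). For Dnmt3b they were Sap30l (0.010), Fbxl6 (0.021) and Mir98 (0.032). For Tet3 they were Mrpl14 (0.0092), Pex10 (0.0095) and Med7 (0.013). With 4 arrays in 2 lines, such a likeness is a description of these arrays.

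Of 20 measured genes whose proteins work with the methyltransferases, 2 were higher in TS2, 1 was higher in TS1 and 17 did not pass, with a median difference of 0.022. This share of 15% called is near the 13.5% of all genes. Dmap1, which binds Dnmt1 and also belongs to chromatin remodelling complexes, read 8.71 and 8.81 in TS1 against 7.57 and 7.51 in TS2. Its difference was -1.22 (SE 0.093, adjusted p = 0.00265), and it passed whichever array was left out. The histone methyltransferases Nsd1 and Nsd2, whose mark guides Dnmt3a to intergenic DNA, were higher in TS2 by 0.45 (adjusted p = 0.0369) and 0.46 (adjusted p = 0.0441). Neither call survived the loss of any array, the adjusted p-values then being 0.0602 to 0.182 and 0.059 to 0.215. Hells, a remodeller needed for methylation of repeats, differed by -0.066 (adjusted p = 0.863), and Pcna, the replication clamp that holds Dnmt1, by -0.11 (adjusted p = 0.496). Usp7, a deubiquitinase that binds Dnmt1 and Uhrf1, differed by -0.27 (adjusted p = 0.115), and Uhrf2, the paralog of Uhrf1, by 0.074 (adjusted p = 0.749). Dppa3, a germ cell and egg protein that displaces Uhrf1, was dim on all 4 arrays, from 4.16 to 4.93.

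Among 8 measured readers of methylated DNA, 2 were higher in TS2 and 1 in TS1, with a median difference of 0.21. This is 37.5% called, against 13.5% of all genes. Mbd1, a methyl-CpG binding repressor, was higher in TS2 by 0.52 (adjusted p = 0.0315), as was the zinc finger reader Zbtb4 by 0.44 (adjusted p = 0.033). Zbtb38, a related reader, was higher in TS1 (difference -0.49, adjusted p = 0.0285). None of these 3 calls survived the loss of any array, the adjusted p-values then being 0.0745 to 0.172 for Mbd1, 0.0762 to 0.175 for Zbtb4 and 0.0555 to 0.153 for Zbtb38.

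Of 8 measured TET partners and CXXC domain proteins, Cxxc5 alone passed (12.5% called, against 13.5% of all genes). Cxxc5, a protein with a CXXC domain, read 8.63 and 8.99 in TS1 against 6.65 and 7.20 in TS2. Its difference of -1.89 (SE 0.23, adjusted p = 0.00971) had the direction of Tet1, and it passed whichever array was left out. Ogt, the sugar transferase that binds TET proteins, differed by -0.17 (adjusted p = 0.381).

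Base excision and deamination genes act after TET oxidation. Of 21 measured, 4 passed, 1 higher in TS2 and 3 in TS1, with a median difference of -0.20. For comparison, 13.5% of all genes were called, 8.45% higher in TS1 and 5.05% higher in TS2, so calls leaned towards TS1 there too. Whether this list exceeds that share was not tested. Neil3, a glycosylase of dividing cells, read 9.46 and 9.88 in TS1 against 11.07 and 11.05 in TS2, a difference of 1.39 (SE 0.16, adjusted p = 0.00821). Neil1, a relative that removes oxidised bases, differed by -0.67 (adjusted p = 0.0175), Ung, which removes uracil, by -0.63 (adjusted p = 0.0171), and the repair polymerase gene Polb by -0.45 (adjusted p = 0.0463). The Neil3 call held whichever array was left out. Those of Neil1 (adjusted p = 0.0547 to 0.1) and Polb (0.104 to 0.232) were lost each time, and that of Ung was lost without TS1 B (0.0584), TS2 A (0.109) and TS2 B (0.0704). Neil1 lay below the medians of all arrays, at 5.97 and 5.91 in TS1 and 5.35 and 5.19 in TS2. Mbd4, a glycosylase that acts beside Tdg, differed by -0.45 and did not pass (adjusted p = 0.0523).

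Supply of the methyl donor and of the TET cofactor showed 1 called gene each, or 7.14% and 7.69%, against 13.5% of all genes. Of 14 measured genes of S-adenosylmethionine and one-carbon metabolism, Ahcyl2, related to the enzyme that clears the product of methylation, was higher in TS1 (difference -1.21, adjusted p = 0.022). Leaving out TS1 B (adjusted p = 0.0774) or TS2 B (0.0748) ended the call. Of 13 measured genes that make, use or compete with alpha-ketoglutarate, Glud1, a mitochondrial dehydrogenase that produces it, was 0.45 above its TS1 value in TS2 (adjusted p = 0.0481). The loss of any array ended that call (0.108 to 0.238). Idh1, the cytosolic enzyme that makes alpha-ketoglutarate, read 9.94 and 10.35 in TS1 and 8.80 and 9.59 in TS2. Its spread in TS2 was wide, and its difference of -0.95 did not pass (adjusted p = 0.105). Idh2, its mitochondrial relative, differed by -0.21 (adjusted p = 0.238).

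Dnmt1 and Uhrf1 are transcribed mainly in cycling cells, so genes of S phase and proliferation are set beside them. Of 17 measured, limma called 1 with TS2 the higher and 0 with TS1 the higher (6 and 1 if p is left unadjusted), with a median difference of 0.11. The share called was 5.88%, against 13.5% of all genes. The called gene, Ccne1, which encodes a cyclin of entry into S phase, was higher by 0.66 (adjusted p = 0.0414). Its call was lost without TS1 B (adjusted p = 0.104), TS2 A (0.117) and TS2 B (0.185). Mki67, a marker of cycling cells, differed by 0.31 (adjusted p = 0.0918).

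Germline genes that somatic cells keep silent by promoter methylation lay mostly below the arrays' medians in both lines. The exceptions were Rhox6, a homeobox gene of the X chromosome, at 7.94 and 7.79 in TS1 and 8.23 and 8.05 in TS2, and Piwil2, a germline small-RNA factor, at 6.64 on TS1 B and 6.52 on TS2 B. Of 22 measured, limma called 0 (0%, against 13.5% of all genes). At an unadjusted p under 0.05, 2 were higher in TS2 and 1 in TS1. Such a p was found for 5862 of all 19939 genes. Intensities of the germline genes ran from 3.36 to 8.23, and their median difference was 0.031. Of 12 measured imprinted genes, whose parental copies carry different methylation, 1 passed (8.33%, against 13.5% of all genes). This was Peg10, which read 11.01 and 10.93 in TS1 against 5.42 and 5.45 in TS2, a difference of -5.53 (adjusted p = 9.39e-05). On TS2 it lay below the arrays' medians.

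**Figure D4:**
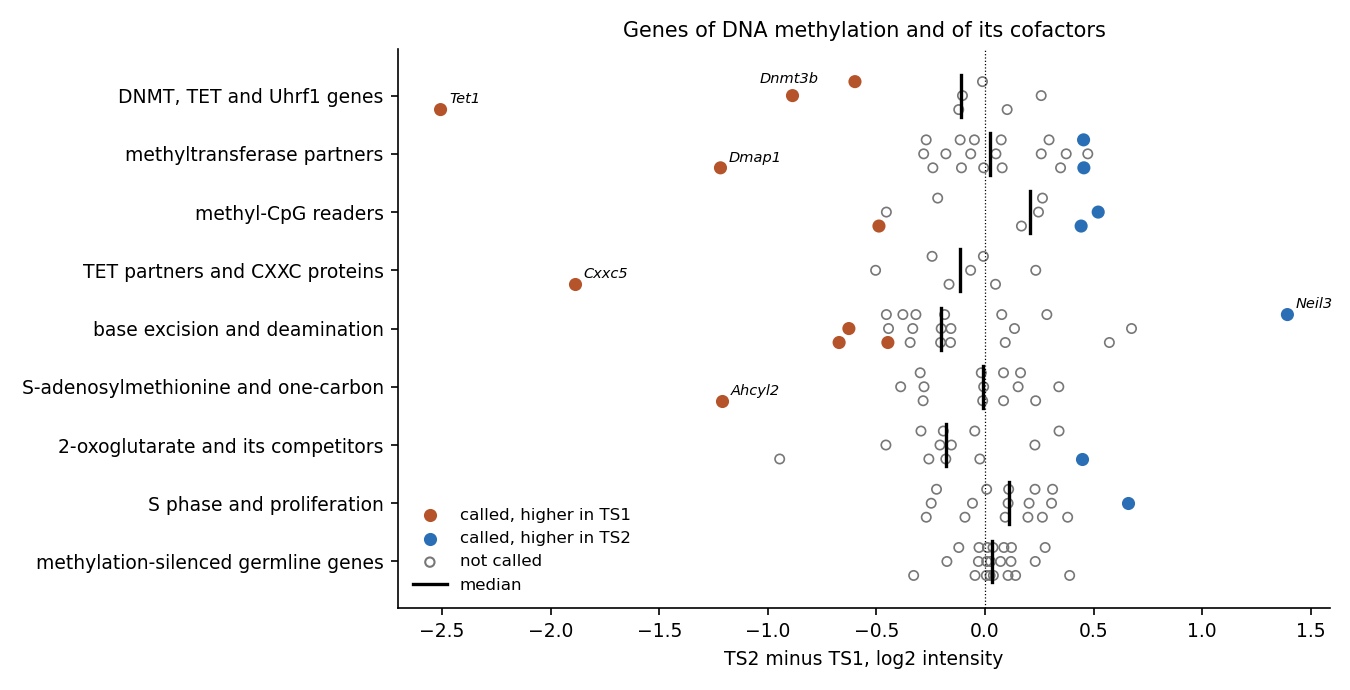
TS2 minus TS1 difference in log2 intensity (horizontal axis) of every measured gene of the family and of 8 related lists (rows), the imprinted genes with Peg10 at -5.53 left out, with called genes filled and the median of each list as a bar. Tet1 (-2.51), Cxxc5 (-1.89), Dmap1 (-1.22) and Ahcyl2 (-1.21) lie farthest towards TS1 and Neil3 (1.39) farthest towards TS2 among the called genes plotted, while most genes lie near 0.

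Over all 9 lists, 15 of 134 measured genes were called, 7 higher in TS2 and 8 in TS1. Leaving out TS1 A made this 8, TS1 B 4, TS2 A 6 and TS2 B 5. At 13.5% called among all genes, this share is near the background.

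The labelled cell type was set against its markers because other differences between the lines accompany those above. Of 13 measured T cell markers, 4 passed with TS2 the higher and 1 with TS1 the higher, and 8 missed the threshold. This is 38.5% called, against 13.5% of all genes. The receptor chain gene Cd3e read 6.45 and 6.41 in TS1 against 12.74 and 12.53 in TS2. Ptprc, the leukocyte antigen CD45, was higher in TS2 by 6.04. Cd247 and Zap70, of receptor signalling, were higher in TS2 by 2.83 and 2.27, and the adaptor Lat was higher in TS1 (difference -2.05). Cd4, Cd3d, Cd2, Cd5, Cd8a and Thy1 lay between 4.63 and 6.32 on all arrays, below the medians in both lines. Cd28 ran from 4.38 to 7.14, and Cd3g was at 10.52 on TS1 A but at 6.07 on TS1 B. The summed intensity of the markers was 1556 to 2792 in TS1 and 13428 to 14861 in TS2. Of 5 measured erythroid and megakaryocyte markers, 4 were higher in TS1 (80% called, against 13.5% of all genes). The sum of these markers was 3679 to 3732 in TS1 and 1283 to 1415 in TS2. Most of that sum came from Gata1, an erythroid and mast cell transcription factor, at 11.61 and 11.59 in TS1 and 10.18 and 10.01 in TS2, while the other 4 lay between 3.90 and 7.88 on all arrays. The part of these differences in the results for Tet1, Tet3 and Dnmt3b was not tested. Of the other marker lists, 1 of 5 B cell, 1 of 7 myeloid, 1 of 7 mast cell, 1 of 5 fibroblast and 0 of 5 pluripotent cell genes passed. Those called were all higher in TS1, and 13.5% of all genes were called. Kit was the called mast cell gene (difference -1.90, adjusted p = 0.00153). Fcer1a read 12.69 to 13.08 over all arrays and Cpa3 7.95 to 9.13. Mcpt4 and Cma1 read 10.10 and 8.61 on TS2 B, and at most 6.60 and 5.49 on the other arrays. Ms4a2 and Tpsb2 lay below the arrays' medians. The summed intensity of the mast cell markers was 7478 to 8519 in TS1 and 8933 to 10512 in TS2. Most of that sum came from Fcer1a, whose difference of 0.24 did not pass (adjusted p = 0.24).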

How the data were processed

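Total RNA of 4 samples, TS1 and TS2 in duplicate, was measured on Affymetrix arrays. The authors summarised the arrays by RMA in Affymetrix Expression Console, per the submitters' processing notes, with the version not given in the sources used here. Each deposited value is the linear intensity of a probe set on an array. RMA corrects background and normalizes between arrays, which largely takes out a change common to most genes. In log2 the arrays' medians still ran from 6.47 to 6.53. Renewed quantile normalization moved the difference of Dnmt3b from -0.89 to -0.80 and that of Tet3 from -0.60 to -0.48. Here log2 was taken of the intensities, none of which was missing or non-positive (0 values).

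Of 35556 probe sets, 21789 name 1 gene in the platform annotation, 1621 several and 12146 none; 21698 of the first were found by Entrez number in RefSeq GRCm38.p6, whose symbols were used. All arrays entered a model with the line as factor (limma 3.58.1, R 4.3.3; 2 residual and 3.03 prior degrees of freedom), called at an adjusted p under 0.05. The fit was tested on simulated data.

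The members and lists were chosen with earlier results of these data known. Of 147 pathway genes, 134 were measured; Mat2a is among those not analysed here. Text names all members, up to 4 called genes per pathway list whose arrays do not overlap, a fixed set of cofactors (Uhrf2, Hells, Usp7, Pcna, Dppa3, Mbd4, Ogt, Idh1, Idh2, Mki67), the T cell markers and 3 most similar genes per called member. Dnmt3aos, Rhox6, Piwil2, Gata1 and the mast cell markers were added after their values were seen. The replicate letters were not used as pairs because the labels do not say that A or B marks a shared culture day. As a check after the fit, A minus B correlated at -0.0294 between the lines over all genes. Alternatives were the replicate block, each array left out, 2 prior variances, 2 scalings, 2 filters on dim genes, the mean of a gene's probe sets and a stricter threshold.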

Additional observations from a re-analysis of the deposited data

How the results depend on the processing

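Tet1 and Dnmt3b kept their direction and their call at an adjusted p of 0.05 in all 13 alternatives run, with differences of -2.70 to -2.30 and -0.92 to -0.80. With the replicate letter as a block, the adjusted p was 0.00362 for Tet1, 0.0239 for Dnmt3b and 0.0476 for Tet3, and 3 members were called, as without it. Tet3 (-0.60) did not pass the stricter threshold of 0.01, and without each array in turn its difference was -0.67 to -0.53. Dnmt1 and Tet2 kept their sign and passed under no alternative. Signs turned for 3 uncalled genes: Dnmt3a was 0.013 with arrays centred on their medians and 0.11 with quantile normalization again, and left-out arrays gave -0.13 to 0.11 for Dnmt3a, -0.053 to 0.26 for Dnmt3l and -0.31 to 0.071 for Uhrf1. Over the pathway lists, 15 calls became 8 with the replicate block, 23 with an intensity trend, 4 at the stricter threshold and 4 to 8 with an array left out. Over all genes, 2691 calls became 1666 with the block, 807 at the stricter threshold and 980 to 2198 with an array left out. Fewer arrays leave fewer degrees of freedom, and the lone array of a line is then assumed to vary like the other line; the other causes were not tested. Dnmt3l, among the dimmest genes, gave no value with the dimmest 30% or 50% of genes left out, and without detection calls the size of differences of dim genes is uncertain.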
